A study of Mus musculus with 10 samples.

Results

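This account covers 42 collagen and matrix genes that are commonly used as genes of stromal cells, followed through 10 libraries of mouse bone-marrow-derived macrophages. The genes were given as a list of symbols and were matched to Ensembl gene IDs through the symbol column of the deposited log2 table, which held all 42. The count table holds 54307 genes, of which 12411 had enough counts to be tested, and 33 of the 42 matrix genes were among them. The genes were then split by a rule on their values into those that followed Col1a1 from library to library and those that stayed even. Col1a1 and 23 followers formed the first set and 2 genes, Timp2 and Igfbp4, the second. Another 7 lay in between, and 9 had too few counts to be placed.

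Fibroblasts and other mesenchymal cells build the extracellular matrix by secreting fibrillar collagens, which are folded with the chaperone encoded by Serpinh1, trimmed with help from Pcolce and cross-linked by lysyl oxidases. Proteoglycans, glycoproteins such as fibronectin and thrombospondin, metalloproteinases and their inhibitors then shape that matrix. Macrophages are known to make some of these products themselves, including fibronectin, thrombospondin 1 and the inhibitor TIMP2, whereas collagen I is regarded as a product of mesenchymal cells.

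The macrophages came from male mice aged 6 to 8 weeks, 5 labelled as wild-type control and 5 labelled as overexpressing human WDFY3 (hWDFY3 KI/KI, called knock-in here). All cultures were grown from marrow flushed out of femurs and tibiae, in medium that held 20% conditioned medium of L-929 fibroblasts, and were harvested on day 7. Strand-specific poly(A)+ libraries were read as 100-bp pairs with 20 M reads planned for each. The sources used here do not give the strain, the locus of the inserted gene or its promoter.

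Promoter sequences were taken from a set built on RefSeq (GRCm38.p6), and the set used here held an entry for 29 of the 42 genes. The others were Col1a1, Dcn, Fn1, Thbs1, Lum, Lox, Loxl1, Mmp2, Vcam1, Col5a2, Col12a1, Col14a1 and Pdgfrb. Below are the 200 bases before the start site of 2 genes whose levels moved together from library to library, Col3a1 and Serpinh1, and of Igfbp4, a gene of even level, each read 5′ to 3′ on the gene's own strand. No GENCODE M21 exon overlaps these windows, which lie at chr1:45311338-45311537 (plus strand), chr7:99353240-99353439 (minus strand) and chr11:99041044-99041243 (plus strand). Capitals mark a match to a TATA box (TATAAA) or a GC box (GGGCGG).
Col3a1: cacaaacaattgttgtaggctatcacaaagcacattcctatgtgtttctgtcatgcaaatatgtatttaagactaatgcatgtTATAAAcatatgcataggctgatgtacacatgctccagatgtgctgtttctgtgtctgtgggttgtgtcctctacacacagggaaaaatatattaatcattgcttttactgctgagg
Serpinh1: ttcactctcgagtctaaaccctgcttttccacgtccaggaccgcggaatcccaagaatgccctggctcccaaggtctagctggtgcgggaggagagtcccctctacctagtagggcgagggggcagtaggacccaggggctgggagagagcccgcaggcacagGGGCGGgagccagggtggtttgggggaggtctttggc
Igfbp4: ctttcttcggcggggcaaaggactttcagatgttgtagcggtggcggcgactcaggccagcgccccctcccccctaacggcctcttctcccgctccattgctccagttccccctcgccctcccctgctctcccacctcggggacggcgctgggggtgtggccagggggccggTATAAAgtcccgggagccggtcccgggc
The TATA box of Col3a1 begins 117 bases before the start site and that of Igfbp4 28 bases before it, while the GC box of Serpinh1 begins 37 bases before it. Over the 250 bases before the start and on both strands, a GC box was present in 12 of the 17 followers with an entry and in 32.9% of all 27025 promoters. It was also present in 4 of the 5 genes in between, 1 of the 2 even genes and 2 of the 5 genes below the filter that had an entry. The box was thus not particular to the followers, and all promoters include those of genes not tested here. A TATA box was present in 1 of the 17 followers and in 13.0% of all promoters. A CCAAT box (CCAAT) was present in 4 of the 17 and in 34.5% of all, and an AP-1 site (TGANTCA) in 1 of the 17 and in 6.87% of all. None of these 4 motifs was searched for beyond this window, and a match is only a match of letters.

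Library totals ran from 14.6 to 36.4 M estimated counts, and no library was a copy of another in its group (chi-square per gene from 8.75 to 54.5 over 20 pairs). Levels are given below as CPM, counts of a gene per 1000000 counts, with library sizes scaled by the TMM method. The mouse Wdfy3 gene was at 109.8 ± 9.83 CPM in control and 119.7 ± 6.19 CPM in knock-in libraries (mean ± SD, n = 5 each), and its difference did not pass the test (log2 fold change 0.13 ± 0.066, edgeR quasi-likelihood test with Benjamini-Hochberg adjustment, adjusted p = 0.811). The label of the cells was checked with 14 macrophage genes, all of which were tested and even. Lyz2, which encodes lysozyme, ran from 18249.8 to 31387 CPM and Csf1r, the receptor for the growth factor that L-929 medium supplies, from 1339 to 1861 CPM. Knocked-in human transcripts were not analysed here.

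The matrix genes took 0.0654% to 0.164% of a library's counts, and 4 of them, Fn1, Timp2, Igfbp4 and Thbs1, gave 71.2% to 91.7% of that. The 3 libraries with the most Col1a1 were control 4, control 1 and knock-in 4, in that order. These same 3 libraries were the highest for 39 of the 42 matrix genes (92.9%) and for 737 of the 12411 tested genes (5.94%). The 39 include Col1a1, which defines the 3 libraries, and all 9 matrix genes below the filter, whereas the 737 are tested genes only. The 3 exceptions were Col18a1, Postn and Igfbp4. In bulk RNA a library with fewer cells of a type and one with less RNA in each such cell cannot be told apart, so the values below are levels in the whole culture.

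A gene was counted as a follower where its Spearman rank correlation with Col1a1 over the 10 libraries (rho) was at least 0.8 and its highest CPM was at least 4 times its lowest, with counts under 3 raised to 3. It was counted as even where the highest was under 2 times the lowest. By this rule 82 of the other 12410 tested genes (0.661%) followed Col1a1, and 23 of these 82 were matrix genes from the list. Even genes were the common case, at 9930 of 12411 tested genes (80.0%), against 2 of the 33 tested matrix genes. The followers' rho ran from 0.806 to 0.988 with a median of 0.927, and their ratio of highest to lowest from 5.34 to 340.4 with a median of 43.6. In 14 of the 24 genes, Col1a1 and its followers, the lowest library held under 3 counts, so their ratios are lower bounds, as is the median. All points share their library, its depth and its mix of cells, and the correlations are given as a description. Without control 4 and control 1, the 2 libraries farthest from the median of Col1a1, the followers' rho ran from 0.643 to 1 with a median of 0.881 over 8 libraries. Over the 7 libraries without the 3 that held the most Col1a1, their rho ran from 0.464 to 1 with a median of 0.821, and the rule, applied to those 7, gave 13 matrix genes as followers in place of 23. Lox and Pcolce stood just inside the limit at a rho of 0.806, and Tnc and Mmp14 just outside at 0.770.

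**Figure D1:**
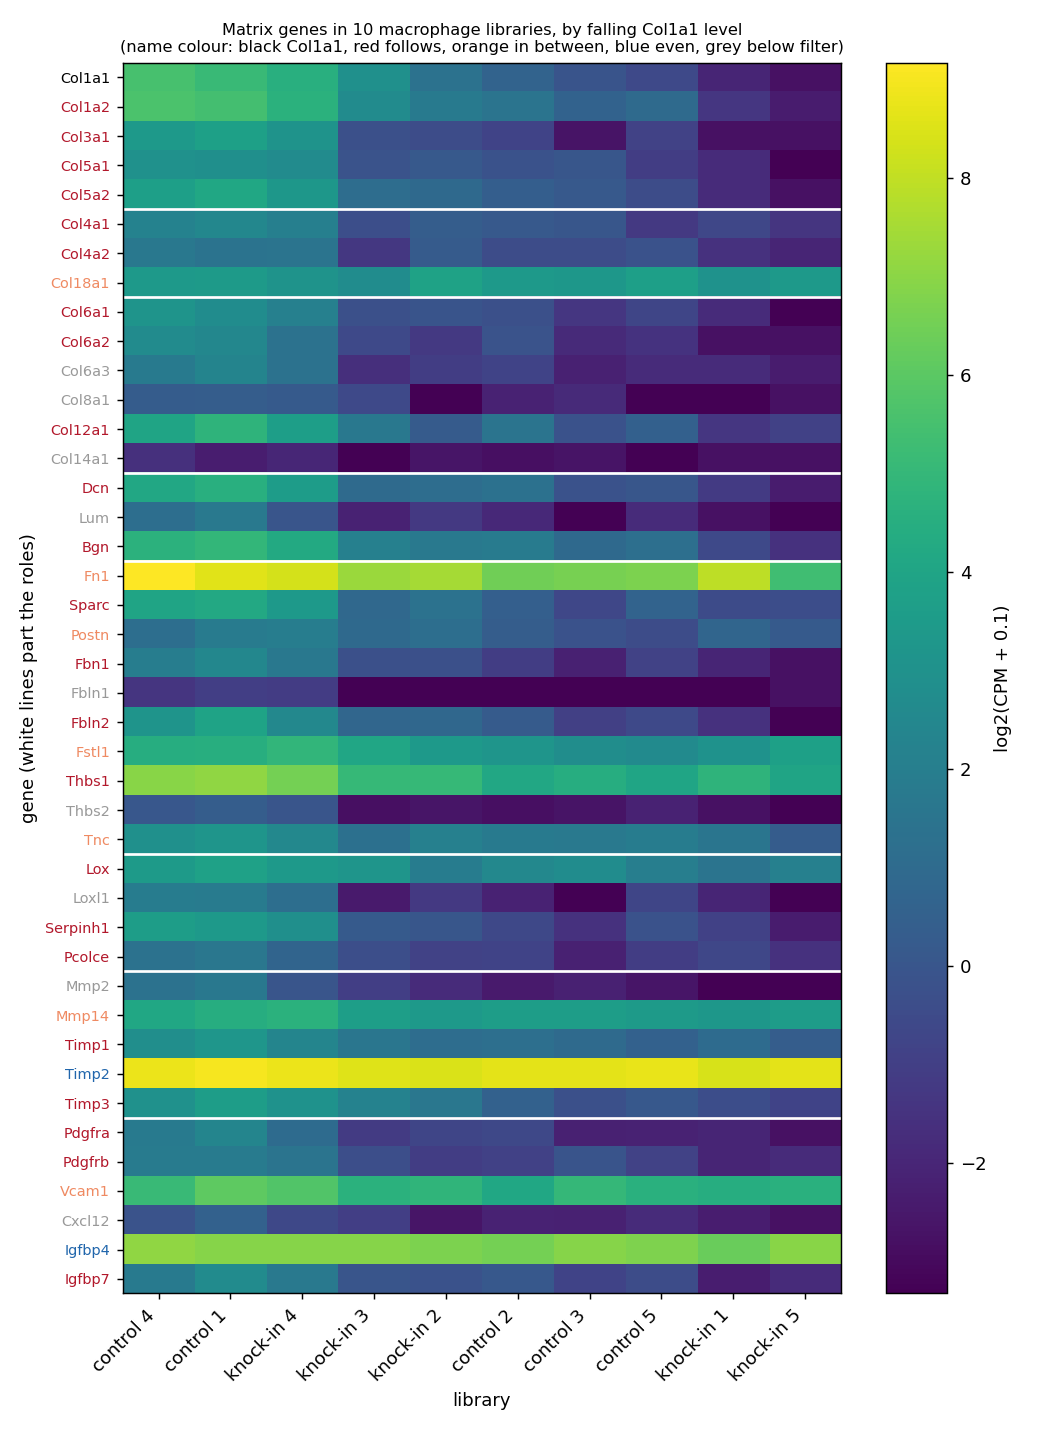
Level of each of the 42 genes (rows, grouped by role) in each of the 10 libraries (columns, ordered by falling Col1a1 level), as log2(CPM + 0.1) on the colour scale. The 3 columns on the left are brighter for most rows, while the rows of Timp2 (347 to 520.5 CPM) and Igfbp4 (80.3 to 139 CPM) keep nearly 1 colour.

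Fibrillar collagens, the rope-forming collagens of connective tissue, held the genes with the widest range of the 42, Col1a2 and Col1a1. Col1a1 (ENSMUSG00000001506, chromosome 11, 94936224 to 94953042, plus strand, GENCODE M21 on GRCm38), which encodes the alpha-1 chain of collagen I, was at 35.4, 1.46, 0.839, 46.8 and 0.585 CPM in controls 1 to 5 and at 0.146, 2.54, 7.68, 23.2 and 0.0478 CPM in knock-ins 1 to 5. Control 4, control 1 and knock-in 4 stood far above the rest, knock-in 3 followed at a distance, and knock-in 5 and knock-in 1 held only 1 and 3 counts. The groups overlapped. Col1a2 (ENSMUSG00000029661), which encodes the partner chain of the same collagen, was at 43.1, 2.71, 1.44, 48.8 and 1.88 CPM in controls 1 to 5 and at 0.293, 3.38, 6.37, 25.4 and 0.0956 CPM in knock-ins 1 to 5. The order of the libraries was almost that of Col1a1, with a rho of 0.988. Per kilobase of exon, Col1a2 stood at 0.438 to 0.979 of Col1a1 in the 7 libraries with at least 10 counts of each. The length used was that of all annotated exons of a gene merged, 12426 bases for Col1a2 and 6563 for Col1a1. The ratio therefore depends on the annotation and is no measure of the ratio of the chains.

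Col3a1, which encodes the collagen III that accompanies collagen I in soft tissue, was at 13.5, 0.473, 0.0599, 10.9 and 0.455 CPM in controls 1 to 5 and at 0.0488, 0.650, 0.742, 8.51 and 0.0478 CPM in knock-ins 1 to 5. It was high in the same 3 libraries, with the order of controls 1 and 4 exchanged, and under 1 CPM in the other 7. Col5a2, the collagen V chain that lies next to Col3a1 in the genome, was at 17.3, 1.25, 1.02, 13.0 and 0.650 CPM in controls 1 to 5 and at 0.195, 1.82, 2.14, 9.58 and 0.0478 CPM in knock-ins 1 to 5. Its ranks matched those of Col3a1 with a rho of 0.988. Col5a1, another chain of collagen V, was also a follower, with a rho of 0.939 and 0 counts in knock-in 5, which allows up to 0.143 CPM (3 counts).

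Basement membrane collagens were split. Col4a1 and Col4a2 encode the main network chains of basement membranes and have annotated starts that overlap on opposite strands of chromosome 8. Col4a1 was at 5.34, 1.03, 0.899, 4.62 and 0.325 CPM in controls 1 to 5 and at 0.536, 1.17, 0.698, 4.15 and 0.287 CPM in knock-ins 1 to 5. Both were followers, but their ratios of highest to lowest, 18.6 for Col4a1 and 21.6 for Col4a2, were far below that of Col1a1, at least 326. The exception was Col18a1, the collagen whose end is released as endostatin, at 11.1, 10.3, 9.59, 10.4 and 13.1 CPM in controls 1 to 5 and at 8.04, 14.4, 6.59, 8.45 and 10.9 CPM in knock-ins 1 to 5. Its highest library was knock-in 2 and its lowest knock-in 3, its rho with Col1a1 was -0.0061, and control 4 and control 1 lay within the range of the others.

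Among the other collagens, Col12a1, which coats collagen fibrils, had the highest mean CPM, at 28.2, 2.71, 0.779, 15.5 and 1.30 CPM in controls 1 to 5 and at 0.293, 1.11, 3.06, 12.9 and 0.430 CPM in knock-ins 1 to 5. Control 1 was well above control 4, and the groups overlapped. Col6a1, a chain of the beaded filaments of collagen VI, was at 6.62, 0.731, 0.300, 8.85 and 0.520 CPM in controls 1 to 5 and at 0.195, 0.845, 0.742, 4.25 and 0 CPM in knock-ins 1 to 5. Col6a2 moved with it (rho 0.952). The third chain, Col6a3, had too few counts in most libraries to be tested, as had Col8a1 and the fibril-associated Col14a1. Col6a3 was highest at 4.95 CPM in control 1, and Col14a1 stayed at or under 0.227 CPM everywhere.

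The small leucine-rich proteoglycans bind collagen fibrils and set their spacing. Bgn, which encodes biglycan, was at 30.9, 3.57, 1.80, 26.1 and 2.27 CPM in controls 1 to 5 and at 0.585, 3.19, 4.32, 19.2 and 0.239 CPM in knock-ins 1 to 5. Decorin, encoded by Dcn, was at 23.9, 2.45, 0.779, 18.1 and 0.910 CPM in controls 1 to 5 and at 0.341, 2.08, 1.92, 11.8 and 0.0956 CPM in knock-ins 1 to 5. In both, control 1 was highest, control 4 next and knock-in 4 after it, and every other library was under 5 CPM. Lum, the gene of lumican that lies next to Dcn, was below the filter, with 3.19 CPM in control 1, 2.18 CPM in control 4 and under 1 CPM elsewhere.

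**Figure D2:**
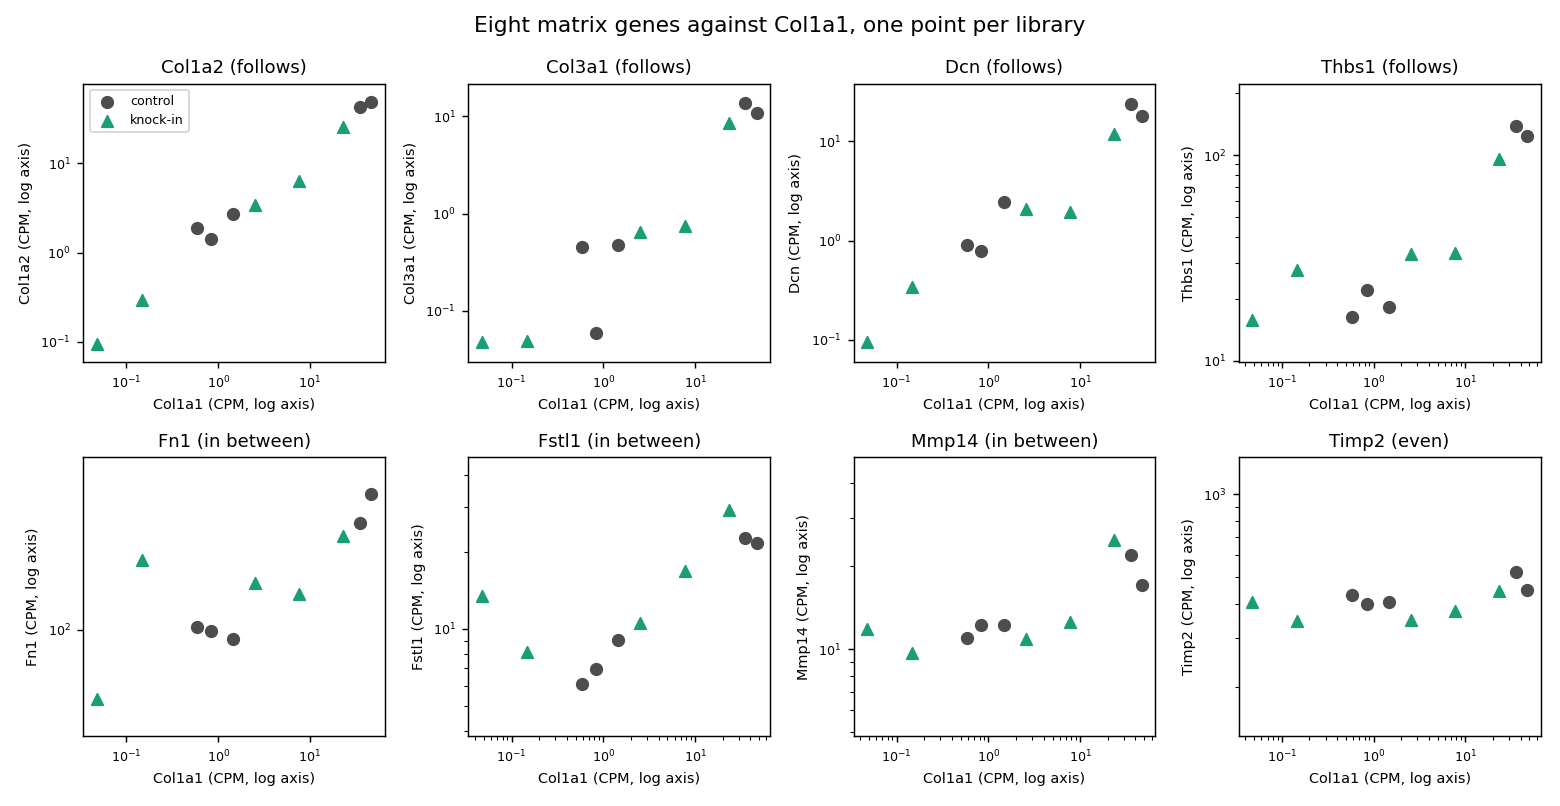
CPM of 8 matrix genes (vertical log axes) against CPM of Col1a1 (horizontal log axes), 1 point per library, with circles for control and triangles for knock-in. Col1a2, Col3a1, Dcn and Thbs1 climb with Col1a1, Fn1, Fstl1 and Mmp14 do so only in part, and Timp2 stays between 347 and 520.5 CPM.

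Matrix glycoproteins held 4 followers, 4 genes in between and 2 below the filter. Thbs1, which encodes the matricellular thrombospondin 1, was at 139, 18.2, 22.1, 124 and 16.2 CPM in controls 1 to 5 and at 27.6, 33.0, 33.5, 96.0 and 15.8 CPM in knock-ins 1 to 5. It was a follower with a rho of 0.903, yet even its lowest library held 15.8 CPM. Sparc, which encodes a collagen-binding protein, was at 18.3, 1.29, 0.540, 15.8 and 1.49 CPM in controls 1 to 5 and at 0.634, 2.54, 1.79, 10.4 and 0.669 CPM in knock-ins 1 to 5. The followers also included Fbn1, the microfibril gene, and Fbln2, which encodes a fibulin, with ratios of at least 37.3 and 105. Thbs2 and Fbln1 were below the filter and reached no more than 1.18 and 0.392 CPM.

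Fn1 (ENSMUSG00000026193, chromosome 1, 71585520 to 71653200, minus strand), which encodes fibronectin, lay in between, at 397, 88.9, 98.0, 577 and 104 CPM in controls 1 to 5 and at 247, 182, 159, 333 and 40.8 CPM in knock-ins 1 to 5. The 3 libraries with the most Col1a1 were again highest, but knock-in 1, with almost no Col1a1, came next, and knock-in 5 was lowest by a wide margin. Its ratio of highest to lowest was 14.1 and its rho 0.758. Over the 7 libraries other than the highest 3, the rho of Fn1 was 0.286. Fstl1, which encodes a secreted follistatin-like protein, was at 22.7, 9.07, 6.95, 21.8 and 6.11 CPM in controls 1 to 5 and at 8.14, 10.6, 16.8, 29.4 and 13.4 CPM in knock-ins 1 to 5. Knock-in 4 was highest, and knock-ins 3 and 5 stood above all controls but 1 and 4. Postn, the gene of periostin, and Tnc, the gene of tenascin C, also lay in between, at 0.650 to 3.79 CPM and 1.15 to 8.92 CPM.

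Genes for collagen processing mostly followed. Serpinh1, which encodes the collagen chaperone HSP47, was at 10.4, 0.559, 0.240, 12.1 and 0.780 CPM in controls 1 to 5 and at 0.439, 0.910, 1.05, 7.33 and 0.0956 CPM in knock-ins 1 to 5. Its pattern was that of the collagens, and knock-in 5 held only 2 counts. Lox, which encodes lysyl oxidase, was at 14.3, 5.63, 6.65, 11.0 and 4.03 CPM in controls 1 to 5 and at 2.68, 3.71, 8.95, 10.4 and 4.21 CPM in knock-ins 1 to 5. It varied the least of the followers, and knock-in 3 was at 0.864 times the level of knock-in 4. Pcolce, the enhancer of procollagen C-proteinase, was a follower at 0.120 to 3.04 CPM. Loxl1 was below the filter and reached 3.66 CPM in control 4.

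Metalloproteinases and their inhibitors covered every pattern. Timp2 (ENSMUSG00000017466, chromosome 11, 118301069 to 118355740, minus strand), which encodes an inhibitor of metalloproteinases, was at 520.5, 406, 399, 448 and 429.5 CPM in controls 1 to 5 and at 347, 351, 375, 445 and 404 CPM in knock-ins 1 to 5. Its ratio of highest to lowest was 1.5, and control 1 was highest. Per kilobase of exon it had the highest mean of the 42 genes, 106 CPM per kb, followed by Igfbp4 at 25.6, Fn1 at 19.1 and Thbs1 at 8.65, against 1.81 for Col1a1. Timp1 was at 9.36, 2.28, 1.92, 7.12 and 1.36 CPM in controls 1 to 5 and at 1.95, 2.08, 2.92, 5.02 and 1.19 CPM in knock-ins 1 to 5. Timp3, whose product stays bound to the matrix, was at 12.3, 1.38, 0.719, 7.94 and 0.975 CPM in controls 1 to 5 and at 0.683, 2.99, 4.50, 8.10 and 0.478 CPM in knock-ins 1 to 5. Both were followers, with ratios of 7.84 and 25.7. Mmp14, the membrane-bound metalloproteinase that activates other proteases of its family, was at 22.1, 12.2, 12.3, 17.1 and 11.0 CPM in controls 1 to 5 and at 9.70, 10.9, 12.6, 24.9 and 11.9 CPM in knock-ins 1 to 5. All but 3 libraries of Mmp14 lay between 9.70 and 12.6 CPM. Mmp2, the gelatinase that it activates, was below the filter and reached 3.14 CPM in control 1.

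Among receptors and secreted signals, Pdgfra and Pdgfrb, which encode receptors for platelet-derived growth factors on mesenchymal cells, were followers at low levels. Pdgfra was at 5.00, 0.559, 0.120, 3.46 and 0.130 CPM in controls 1 to 5 and at 0.146, 0.520, 0.349, 2.00 and 0.0478 CPM in knock-ins 1 to 5. Pdgfrb ran from 0.146 to 3.63 CPM with the same 3 libraries on top. Igfbp7, which encodes a secreted protein that binds insulin-like growth factors, was also a follower, at 0.0975 to 6.37 CPM. Cxcl12, the chemokine gene of marrow stroma, was below the filter and reached 1.37 CPM. Igfbp4 (ENSMUSG00000017493, chromosome 11, 99041244 to 99054392, plus strand), another binding protein for insulin-like growth factors, was at 121, 93.5, 118, 139 and 109 CPM in controls 1 to 5 and at 80.3, 106, 121, 120.4 and 123 CPM in knock-ins 1 to 5. It was even, and its lowest library was knock-in 1. Vcam1, the adhesion molecule that holds leukocytes, was at 66.5, 17.3, 31.7, 35.5 and 24.5 CPM in controls 1 to 5 and at 22.0, 29.2, 25.5, 55.5 and 24.2 CPM in knock-ins 1 to 5. Control 1 and knock-in 4 were high, while control 4 was only slightly above control 3.

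**Figure D3:**
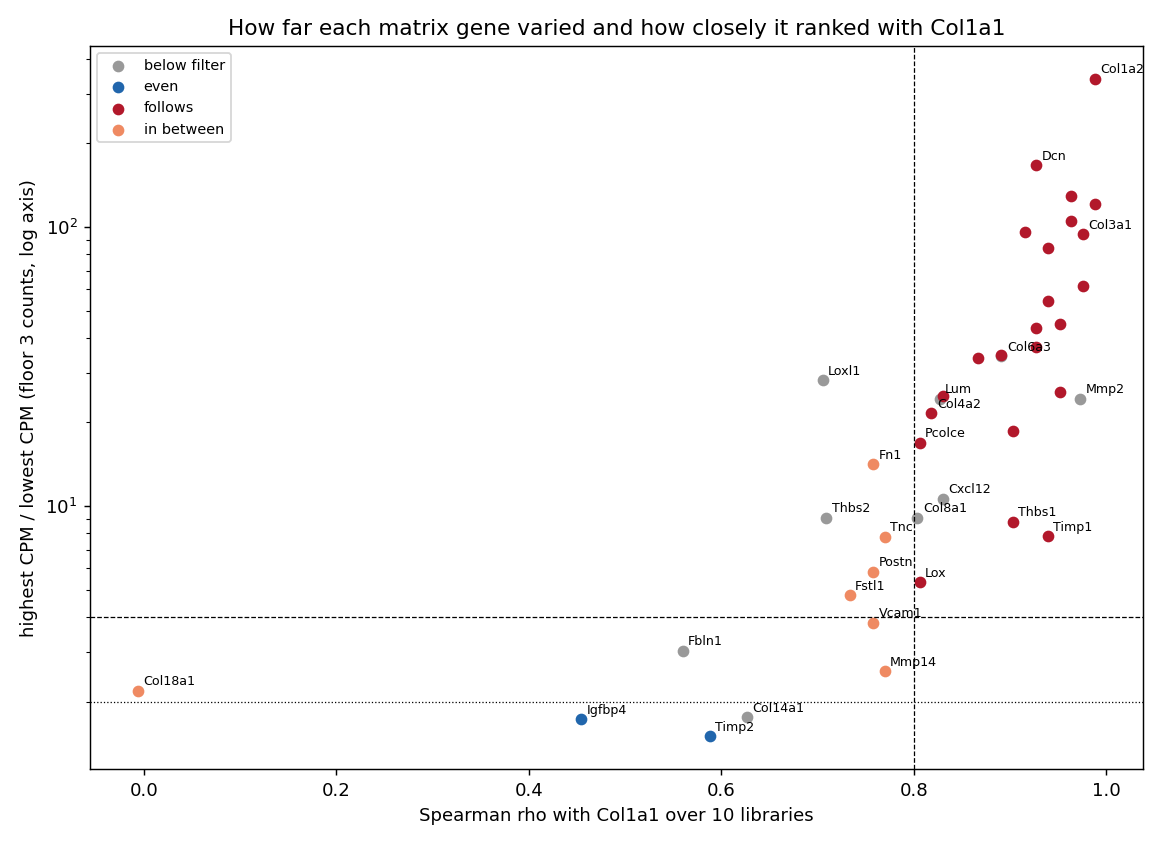
Ratio of highest to lowest CPM (vertical log axis, counts under 3 raised to 3) against Spearman rho with Col1a1 over 10 libraries (horizontal axis), 1 point for each of the other 41 genes, with colours for the 4 sets. Dashed lines mark a rho of 0.8 and a ratio of 4, and the dotted line a ratio of 2. The 23 followers fill the upper right, and Timp2 (1.5) and Igfbp4 (1.72) lie under the dotted line.

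The 23 followers were chosen for their rho with Col1a1 over these same libraries. That choice largely fixed in advance how they ranked with one another. Over the 276 pairs among Col1a1 and its followers the median rho was 0.891 and the lowest 0.552, and 219 pairs (79.3%) reached 0.8. Over the 7 libraries without the highest 3, the median of the same pairs was 0.714 and the lowest -0.214. The 7 genes in between had a median of 0.588 over 21 pairs, of which 1 (4.76%) reached 0.8. Their rho with Col1a1 was in each case under the 0.8 that the rule asks for. The 42 genes lie on 17 chromosomes. Within 100 kb of each other lie Col3a1 and Col5a2, Col4a1 and Col4a2, Col6a2 and Col6a1, and Dcn and Lum. The rho within these pairs ran from 0.830 to 0.988, a range that holds the median of 0.891 over all 276 pairs. All of these neighbours but Lum were followers, so a high rho within the pairs does not set neighbours apart.

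Within a library, each follower was next given as its share of the summed counts of that gene and Col1a1, with an exact binomial 95% interval. Knock-in 3, the fourth library by Col1a1, was singled out after its values were seen and compared with the 3 libraries above it. For 18 of the 23 followers the interval of the share in knock-in 3 overlapped that of at least 1 of these 3 libraries. For Col3a1, Dcn and Serpinh1 it lay below all 3 and for Lox and Timp3 above all 3. The share of Col5a2 in its summed counts with Col1a1, for example, was 21.8% in knock-in 3 and 21.7% in control 4, and that of Bgn 36.0% and 35.8%. In control 1 and knock-in 4 these shares were higher, at 32.8% and 29.2% for Col5a2 and 46.6% and 45.3% for Bgn. In knock-in 3, Col3a1 made up 8.81% of the summed counts of Col1a1 and Col3a1 (exact binomial 95% interval 5.22% to 13.7%, which covers counting error only). The share was 27.6% (24.9% to 30.5%) in control 1, 26.8% (23.4% to 30.5%) in knock-in 4 and 18.8% (17.2% to 20.6%) in control 4. These intervals do not reach that of knock-in 3. Decorin gave a like order, with Dcn at 20.0% (14.9% to 25.9%) of the counts of Dcn and Col1a1 in knock-in 3 and at 40.2%, 33.7% and 28.0% in control 1, knock-in 4 and control 4. Timp3 went the other way, at 36.9% (31.2% to 42.9%) in knock-in 3 and 25.8%, 25.9% and 14.5% in control 1, knock-in 4 and control 4. The level in knock-in 3 was 10.8 times the median of the 6 remaining libraries for Col1a1, 5.31 times for Timp3, 3.83 times for Col1a2, 2.27 times for Dcn and 0.973 times for Col4a1.

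Markers of other cell types were set beside these patterns. Summed over Col1a1 and its followers, the level was 462, 51.9, 43.9, 413 and 37.9 CPM in controls 1 to 5 and 38.5, 69.0, 87.0, 286 and 24.6 CPM in knock-ins 1 to 5. Of 18 mesenchymal identity markers, which include transcription factors and surface proteins of stromal cells, 4 passed the filter and 2 followed Col1a1 by the rule, Grem1 and Cdh11. Grem1, which encodes a BMP antagonist, was at 15.8, 2.02, 1.02, 9.95 and 0.910 CPM in controls 1 to 5 and at 0.341, 1.56, 1.83, 9.74 and 0 CPM in knock-ins 1 to 5. Their summed level ran from 26.1 to 47.0 CPM in control and from 26.1 to 38.7 CPM in knock-in libraries. Kitl, the stem cell factor gene, had the highest mean CPM of the list and was not a follower (rho -0.891, 12.9 to 28.4 CPM). Meox2 and Tcf21 had 0 counts in every library, which allows up to 0.0851 to 0.195 CPM by library (3 counts), and 13 of the 18 stayed under 1 CPM throughout. Prrx1, which encodes a mesenchymal transcription factor, was below the filter but ranked with Col1a1 (rho 0.976), at 5.69, 0.258, 0.180, 5.90 and 0.195 CPM in controls 1 to 5 and at 0, 0.325, 0.786, 3.18 and 0.143 CPM in knock-ins 1 to 5. Its 3 highest libraries were those with the most Col1a1.

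Of 9 smooth muscle and pericyte markers 2 were tested and both followed, Acta2 and Tagln, which encode proteins of contractile filaments. Their list summed to 1.17 to 12.7 CPM in control and 0.287 to 8.30 CPM in knock-in libraries. Neutrophil markers also moved with the followers, and 5 of 7 tested genes of 11 listed passed the rule, namely S100a8, S100a9, Ngp, Ltf and Lcn2. Their list summed to 42.6, 11.3, 14.6, 52.6 and 7.80 CPM in controls 1 to 5 and 7.26, 11.9, 10.3, 21.5 and 4.92 CPM in knock-ins 1 to 5. Control 4, control 1 and knock-in 4 were again highest. The neutrophil genes' part in the values of the matrix genes was not tested, nor was that of the mesenchymal and smooth muscle markers. No tested gene of the endothelial (4 of 9), bone and cartilage (1 of 10), adipocyte (2 of 6), lymphocyte (2 of 6) or macrophage (14 of 14) lists followed Col1a1. The endothelial list summed to 80.1 to 132.7 CPM in control and 96.3 to 142.8 CPM in knock-in libraries. Bone and cartilage markers summed to 8.43 to 11.96 and 8.17 to 12.5 CPM, and lymphocyte markers to 1.23 to 2.72 and 0.845 to 2.49 CPM. Control 1, control 4 and knock-in 4 were lowest for the endothelial list, at 80.1, 103 and 96.3 CPM. They were highest for the bone and cartilage list, at 11.96, 11.85 and 12.5 CPM, with control 5 next at 11.2 CPM. The lymphocyte list had neither pattern. Bglap2, Dmp1 and Sost of the bone list and Cfd and Lep of the adipocyte list had 0 counts throughout, with the same limit. The adipocyte list summed to 8520 to 10490 CPM in control and 9186 to 10229 CPM in knock-in libraries, nearly all of it from Lpl, the lipoprotein lipase gene, which macrophages also express.

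**Figure D4:**
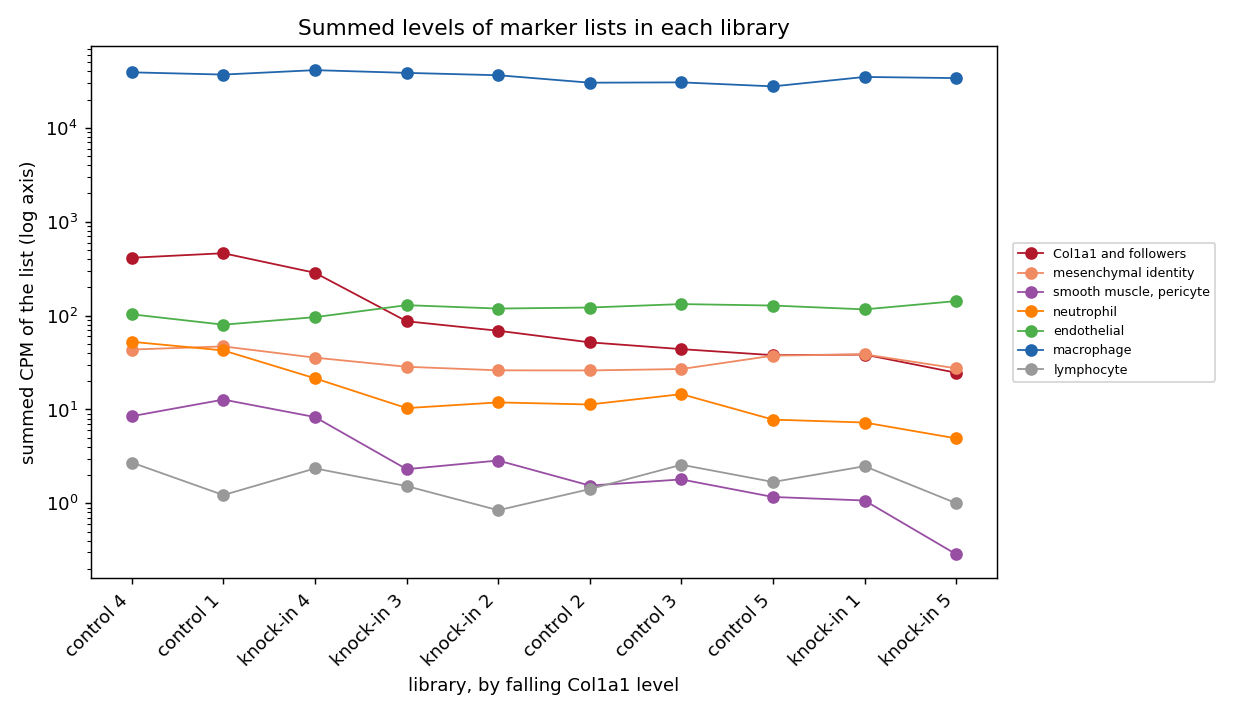
Summed CPM (vertical log axis) of Col1a1 with its followers and of 6 marker lists in each of the 10 libraries, ordered from left to right by falling Col1a1. The matrix genes run from 462 CPM in control 1 to 24.6 CPM in knock-in 5, the neutrophil and smooth muscle lists fall with them, and the macrophage list stays between 27666 and 41191 CPM.

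Outside the list, the 12 genes that ranked most like Col1a1 were sought among 377 tested genes whose mean reached 1 CPM and that had a ratio of highest to lowest of at least 4. Of these, 11 are named here: Serpinf1, Tagln, Aebp1, Ltbp2, Nedd4, Acta2, Grem1, Hspg2, Ccn2, Cyp1b1 and Enpp2, with a rho over 10 libraries from 0.976 down to 0.915. Aebp1, which encodes a collagen-binding carboxypeptidase-like protein, was at 14.7, 1.29, 1.08, 13.8 and 0.715 CPM in controls 1 to 5 and at 0.439, 2.02, 1.44, 9.33 and 0.287 CPM in knock-ins 1 to 5. Its 3 highest libraries were those with the most Col1a1.

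In 5 lists of genes that act with the matrix, 5 of 81 tested genes (6.17%) followed Col1a1, against the 0.661% over all tested genes. The filter removed 66 genes of these lists, of which 11 met both limits of the rule, with a highest level of 0.539 to 4.51 CPM. Of 28 genes for enzymes of collagen synthesis 17 were tested, 14 were even and 1, the lysyl oxidase-like gene Loxl2, followed Col1a1. Bmp1, which encodes a procollagen C-proteinase, Fkbp10 and P3h4 met both limits but were below the filter. P4hb, a subunit of prolyl 4-hydroxylase, ran from 481 to 629 CPM, Colgalt1, a collagen galactosyltransferase, from 303 to 415 CPM, and Ppib, a folding enzyme, from 129 to 152 CPM. Of 23 matrix receptors 15 were tested, 11 were even and 0 followed. Among the 8 below the filter, however, the collagen receptor genes Ddr2 (rho 0.985), Mrc2 (0.939) and Ddr1 (0.867) met both limits. Ddr2 was at 2.89, 0.473, 0.360, 3.15 and 0.260 CPM in controls 1 to 5 and at 0, 0.455, 0.480, 1.69 and 0 CPM in knock-ins 1 to 5. Cd36, a receptor for thrombospondin and oxidised lipids, had the highest mean CPM of these. It ran from 3104 to 6971 CPM, with control 1, control 4 and knock-in 4 highest. Of 30 other matrix-degrading proteases 19 were tested, 8 were even and 0 followed. Ctsb and Ctss, which encode lysosomal cathepsins, were even, whereas Mmp12, the macrophage elastase, ran from 6532 to 17496 CPM with control 1 highest. Control 4 (14210 CPM) and knock-in 4 (14097 CPM) came next, so the 3 libraries with the most Col1a1 were on top. The same 3 were highest for Mmp3, Mmp8, Mmp13, Mmp19, Mmp27, Ctsk and Htra1, but not for Mmp9, Ctsl or Adamts1.

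Of 45 other matrix proteins 15 were tested, 8 were even and 4 followed, namely Ltbp2, Ccn2, Hspg2 and Vcan. Below the filter, Lamb1, Lama4, Nid2, Ogn and Cyr61 met both limits. The 3 with the highest mean CPM, Ltbp3, Ecm1 and Tgfbi, were not among the followers. Of 21 growth factor and chemokine partners 15 were tested, 11 were even and 0 followed. Igf1, the growth factor that IGF-binding proteins hold, ran from 637 to 824 CPM and Tgfb1, an inducer of collagen genes, from 187 to 308 CPM. Between the genotypes, edgeR called 0 of the 81 tested genes of these 5 lists. At an unadjusted p under 0.05 there were 6 of 81 (7.41%), against 6.21% of all tested genes. Limma-voom and limma-trend on the deposited log2 values also called 0. DESeq2, which gave an adjusted p to 102 genes of these lists, called 2 of them, Cd44 and Itga4, against 52 of 13770 genes (0.378%) overall. Without knock-in 4, edgeR called 1 of 82 fitted genes of these lists, Itga4 (adjusted p = 0.0454), against 23 of 12577 genes (0.183%) in the whole fit. It called 0 genes of these lists when any other single library was left out. Cd44 and Itga4 are named after their values were seen. Itga4, the integrin chain that binds VCAM1 and fibronectin, was at 104, 115, 116, 99.4 and 115 CPM in controls 1 to 5 and at 136, 139.6, 144, 121 and 148 CPM in knock-ins 1 to 5. Cd44, the hyaluronan receptor, was at 353, 327, 335, 373 and 365 CPM in controls 1 to 5 and at 419, 414, 407, 398 and 416 CPM in knock-ins 1 to 5. In both, every knock-in library was above every control, and the adjusted p was 0.00307 and 4.17e-04 in DESeq2 against 0.196 and 0.254 in edgeR.

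Knock-in and control libraries were compared to ask whether the matrix genes differed with genotype. No matrix gene passed the test. In edgeR's quasi-likelihood test with Benjamini-Hochberg adjustment over all 12411 tested genes, 10 genes (0.0806%) had an adjusted p under 0.05 and 0 of the 33 tested matrix genes did, with adjusted p from 0.787 to 0.972. DESeq2, limma-voom and limma-trend on the deposited log2 values also called 0. At an unadjusted p under 0.05 there was 1 of 33 matrix genes, Timp2, against 771 of 12411 (6.21%). The groups overlapped in all 42 matrix genes, while 164 tested genes (1.32%) had groups that did not.

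The means were lower in the knock-ins for 31 of the 33 tested matrix genes, with a median log2 fold change of -1.07 against -0.0046 over all tested genes. For Col1a1 and each of its followers, the difference between the mean CPM of the groups was smaller than the SD of the controls. The median SE of the log2 fold change was 0.963 for the matrix genes and 0.0920 for all tested genes, and the median biological coefficient of variation was 102% and 11.3%. Col1a1 was at 17.0 ± 22.3 CPM in control and 6.72 ± 9.72 CPM in knock-in libraries (mean ± SD, n = 5), a log2 fold change of -1.37 ± 1.48 (SE) in edgeR with an adjusted p of 0.899. Col6a2 had the lowest log2 fold change, -1.92 ± 1.20 (adjusted p = 0.842 in edgeR). Postn and Fstl1 alone had positive values, 0.28 ± 0.474 and 0.21 ± 0.493.

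For Timp2 the values were 441 ± 48.7 CPM in control and 384 ± 40.8 CPM in knock-in libraries (mean ± SD, n = 5). Its log2 fold change was -0.20 ± 0.0868 in edgeR, with a 95% interval of the fit from -0.39 to -0.0094 and an adjusted p of 0.787. In an exact two-sided permutation test of log2 CPM over the 252 assignments of libraries, Timp2 gave p = 0.0794, Fn1 p = 0.802 and Col1a1 p = 0.492, where the smallest p possible is 0.00794. For Igfbp4 the log2 fold change was -0.076 ± 0.127 and for Fn1 -0.40 ± 0.725.

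The sign of 12 differences turned when the 3 libraries with the most Col1a1 were left out, of which 2 were controls and 1 a knock-in. Without these 3, an alternative chosen once the data had been seen, 27 matrix genes could be tested, and 14 had a positive and 13 a negative difference. Col1a1 then had a log2 fold change of 1.40 (adjusted p = 0.943 in edgeR). Without knock-in 4 alone, 8 of 33 matrix genes had an unadjusted p under 0.05, all lower in the knock-ins, against 536 of 12577 genes (4.26%) that were lower, and 1003 (7.97%) in either direction, in the same fit. Of the 33, 0 were called (lowest adjusted p 0.491, Timp2), against 23 genes (0.183%) overall. The 8 were Timp2, Col6a2, Pdgfrb, Tnc, Pdgfra, Col4a1, Col4a2 and Igfbp7. Knock-in 4 was the only knock-in among the 3 libraries with the most Col1a1. Leaving it out lowers the knock-in mean of genes that are high in those 3, so the shared direction is no separate result. Leaving out any other single library gave 0 or 1 matrix gene at an unadjusted p under 0.05.

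**Figure D5:**
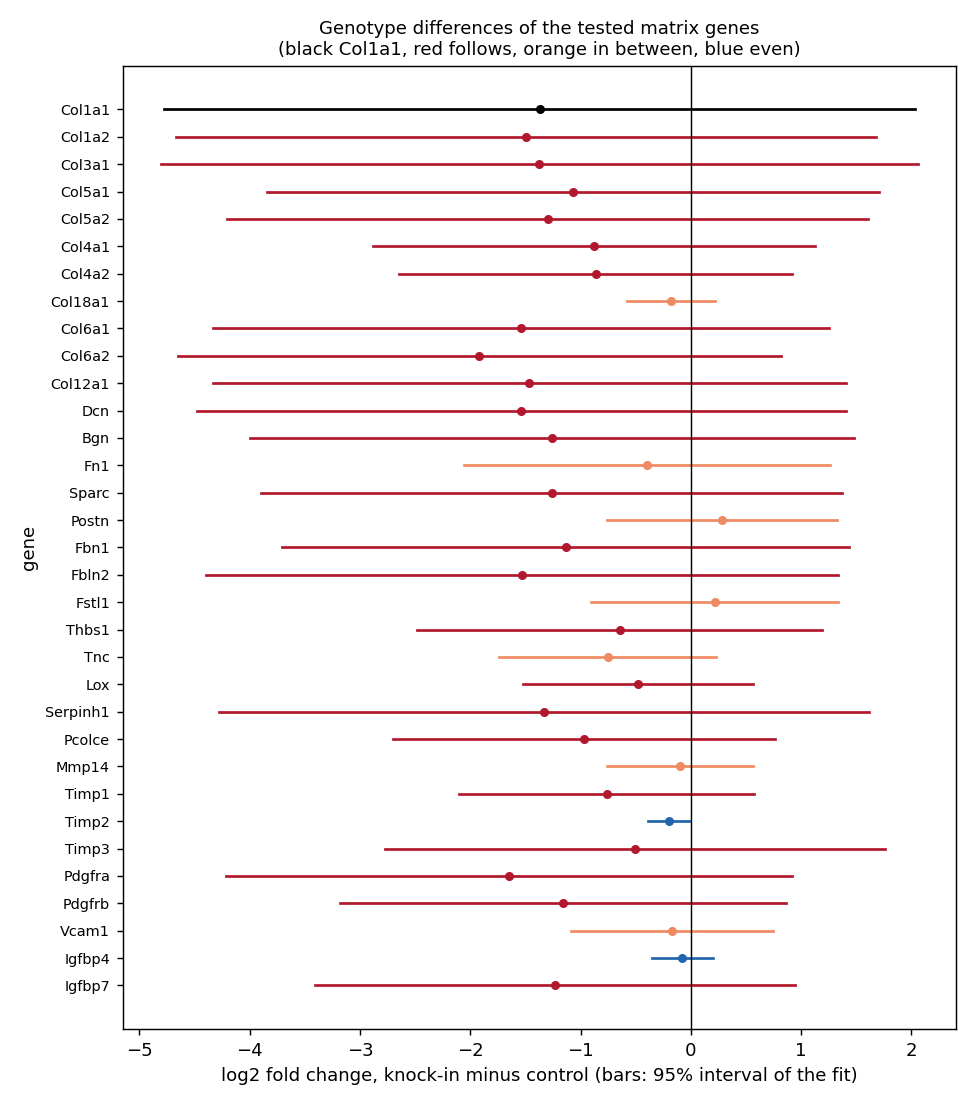
Log2 fold change between knock-in and control (horizontal axis, knock-in minus control) of the 33 tested matrix genes, with points for the fitted value and bars for the 95% interval of the fit. All bars cross 0 but that of Timp2, which ends at -0.0094.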

How the data were processed

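The authors deposited 2 tables, estimated counts by Ensembl gene and regularized-log values, which are on a log2 scale. Per the submitters' processing notes, Salmon 1.6.0, MultiQC and DESeq2 1.34.0 were used, with the builds GRCm39 and mm10 named without their roles. The sources used here do not state the annotation release, the use of strand or the summing of transcripts to genes, which decide how reads of overlapping genes were shared out.

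Estimated counts were rounded. Libraries came from mice that the design text counts separately, and n is mice. The genotype test was edgeR 4.0.16 (R 4.3.3): TMM factors, filterByExpr, robust dispersions, the quasi-likelihood F-test and Benjamini-Hochberg adjustment over 12411 genes. The filter kept genes with a total of at least 15 counts that reached a cutoff in CPM in at least 5 libraries. That cutoff was the CPM of 10 counts in a library of median size. Log2 CPM used a prior count of 2. SEs were obtained from each log2 fold change and its F statistic. The filter drops genes that are high in only 3 libraries, so the 9 matrix genes below it were given by their levels alone. Depth, 14.6 to 36.4 M counts, sets a limit of 0.0851 to 0.195 CPM for a count of 0. Intervals of shares are exact binomial (SciPy 1.17.1). Before use, the fit was run on simulated counts with known changes, and no result rests on that run. Coordinates and exon lengths are those of GENCODE M21 (GRCm38), assigned by gene ID, and none were converted between builds. Exon lengths count the bases of all annotated exons of a gene, merged.

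The members, the lists and the rules for followers and even genes were chosen with earlier results of these data known. By the rule for naming, the values in every library are given for the genes of each role with the highest levels, outside the list for genes among the 12 most like Col1a1 (1 of which is not reported here), and up to 3 genes with the highest mean for each list. Col18a1, Postn, Cd44, Itga4, the list genes below the filter and knock-in 3 were singled out after their values were seen. Also tried were RLE factors, upper-quartile factors, DESeq2 1.42.0, limma-voom and limma-trend (limma 3.58.1), other filters, dispersions that are not robust, the replicate number as a block, other limits and reference genes for the rules, and leaving out each library. Leaving out the 3 libraries richest in Col1a1 was added after seeing the data.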

Additional observations from a re-analysis of the deposited data

Results flagged for a closer look

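In the 5 knock-in libraries, Mmp14 stood at a log2 CPM of 4.64 in knock-in 4, or 24.9 CPM, while the other 4 lay between 3.29 and 3.66. The gap to the nearest library was 0.726 of the whole range, above the limit of 0.71 for 5 samples (Dixon's 95% value). It was the 1 sample far from the others in 66 groups examined, and chance alone marks about 1 group in 20. Knock-in 4 was also among the 3 libraries with the most Col1a1.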

How the results depend on the processing

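The 10 genes called between the genotypes were 12 with the replicate number as a block and 52 in DESeq2, and 6 to 23 when each library was left out, with the most without knock-in 4. No alternative called a matrix gene: 0 members had an adjusted p under 0.05 in every fit, and leaving out each library gave 0 to 0. Under the block, 2 matrix genes had an unadjusted p under 0.05, Timp2 and Tnc. The labels do not say whether the numbers pair the mice. The deviations of same-numbered libraries correlated at -0.200, 0.027, 0.039, 0.509 and 0.251. The best-correlated knock-in library had the same number for controls 4 and 5 but not for controls 1, 2 and 3. Such correlations of levels cannot decide how the mice were raised or handled, and no conclusion on pairing is drawn.

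The 23 followers were 1 by the deposited log2 values and 13 without the 3 libraries with the most Col1a1, while leaving out each library gave 19 to 25. Of the 23, 17 kept a rho of at least 0.8 on the deposited values, but their range there was 0.278 to 2.28 on the log2 scale, under the limit of the rule for most, since regularized values are shrunk by construction. Other limits and reference genes gave 17 to 27. The 2 even genes were 21 on the deposited values, 0 with a limit of 1.5, 4 with a limit of 3, 4 without the 3 libraries and 2 to 3 leaving out each library.

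Signs of uncalled differences turned in 2 ways. Without the 3 libraries with the most Col1a1, 38 genes were called, and the log2 fold changes became 1.40 for Col1a1, 0.32 for Col1a2, 0.073 for Col5a2, 0.70 for Fn1, 0.31 for Sparc, 0.25 for Fbln2, 0.54 for Thbs1, 0.23 for Serpinh1, 0.12 for Timp1, 1.05 for Timp3, 0.047 for Vcam1 and 0.0092 for Igfbp4. Leaving out each library gave -0.69 to 0.16 for Fn1, -0.053 to 0.74 for Postn, -0.14 to 0.48 for Fstl1, -0.41 to 0.084 for Mmp14, -1.14 to 0.21 for Timp3, -0.48 to 0.19 for Vcam1 and -0.14 to 0.018 for Igfbp4. The cause of these turns was not tested. Levels near the limit of 3 counts set how far the range of a low gene can be read.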
